A study of Homo sapiens with 9 samples.

Results

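HNF4A, FOXA1, FOXA2, FOXA3, CEBPA, PROX1, NR1H4 and NR5A2 are 8 transcription factors of the hepatocyte lineage. They were taken by gene name from a table of 27421 genes measured in Huh7, an established human cell line derived from a hepatocellular carcinoma. All 8 passed the filter for testing, which kept 11245 genes. The 9 libraries form 3 groups of 3. They are shZMAT2-1 and shZMAT2-2, written shzmat2-1 and shzmat2-2 in the sample titles, and a control that the titles call only control. The targeted gene, ZMAT2, codes for a spliceosomal zinc finger protein, and the study asked whether its splicing function bears on the course of this cancer. All libraries come from the same cell line, and the labels give no agent, vector or time for any group. Nor do they say that replicates were separate cultures, so p-values measure the spread between these samples only. The values are FPKM, fragments scaled to transcript length and library depth, so levels of different genes can be set side by side.

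Hepatocyte identity is held by a small set of transcription factors that bind one another's genes and, together, the enhancers of plasma protein, lipid and bile acid genes. FOXA proteins are pioneer factors that bind DNA in closed chromatin. HNF4A and CEBPA activate the genes of the differentiated hepatocyte. NR1H4 (FXR) senses bile acids, NR5A2 (LRH-1) drives bile acid synthesis genes, and PROX1, a homeobox factor of the early hepatoblast, is known to bind both HNF4A and NR5A2 as a corepressor.

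The regions just upstream of 3 starts are shown because HNF4A and NR5A2 each have alternative starts, which a gene-level FPKM adds together, and because CEBPA was the most abundant of the 8 genes. Each is the 250 bases before a RefSeq start in GRCh38.p14, 5′ to 3′ on the strand of the gene. The HNF4A window is chr20:44355449-44355698 on the plus strand, directly before the gene. A further HNF4A start, the one known from adult liver, lies 45540 bases downstream. The CEBPA window is chr19:33302535-33302784 on the minus strand, directly before the gene. The NR5A2 window is chr1:200042341-200042590 on the plus strand, before a start 14977 bases inside the gene. Capitals mark matches on either strand to CCAAT, the ONECUT motif ATTGATT, the TATA box TATAAA and the FOXA motif TGTTTAC. The motifs TTGCNNAA (C/EBP), CAAAGTCCA (HNF4), CAAGGTCA (NR5A2) and AGGTCA (nuclear receptor half-site) were searched too. So was GGGCGG (Sp1 or KLF), whose matches are left in lower case. No 2 marked matches overlap.
HNF4A: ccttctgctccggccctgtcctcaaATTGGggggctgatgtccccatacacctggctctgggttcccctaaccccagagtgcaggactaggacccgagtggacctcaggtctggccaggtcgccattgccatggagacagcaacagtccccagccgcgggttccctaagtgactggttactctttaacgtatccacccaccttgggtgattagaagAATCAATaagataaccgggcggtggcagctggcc
CEBPA: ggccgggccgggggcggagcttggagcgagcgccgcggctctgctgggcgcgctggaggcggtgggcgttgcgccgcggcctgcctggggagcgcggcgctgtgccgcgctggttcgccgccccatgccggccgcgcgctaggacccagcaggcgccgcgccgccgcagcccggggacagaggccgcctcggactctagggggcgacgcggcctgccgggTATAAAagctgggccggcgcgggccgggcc
NR5A2: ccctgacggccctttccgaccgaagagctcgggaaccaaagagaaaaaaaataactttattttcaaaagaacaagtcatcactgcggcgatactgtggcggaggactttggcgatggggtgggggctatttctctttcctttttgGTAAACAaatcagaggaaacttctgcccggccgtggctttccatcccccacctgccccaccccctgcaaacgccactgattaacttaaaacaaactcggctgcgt
The HNF4A window holds 1 CCAAT match, in the opposite orientation, and 1 ONECUT match at -34 to -28 from the start. CEBPA has a TATA box that begins at -30, in a window of 81.2% G and C. In the NR5A2 window 1 FOXA match lies at -105 to -99 from the start. The other NR5A2 window, before a start 96 bases inside the gene, is not shown. It held no FOXA match, but a TATAAA match in the opposite orientation. GGGCGG, on either strand, lies at -18 to -13 in the HNF4A window and at -239 to -234 and -133 to -128 in that of CEBPA. Over 35116 RefSeq windows of the same length, 32.0% hold CCAAT, 1.98% the ONECUT motif, 10.7% TATAAA, 2.98% the FOXA motif and 42.6% GGGCGG. The motifs with no match in these 3 windows are in 9.05% (C/EBP), 0.325% (HNF4), 1.14% (NR5A2) and 12.1% (half-site) of them. A match is a string of letters and not a shown binding site.

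Depth recovered from the FPKM of single-exon genes was 18430000 to 23740000 fragments per library. A 1 kb transcript with 3 fragments would have 0.126 to 0.163 FPKM, and the lowest value of any of the 8 genes was 4.53 FPKM. The 13 genes of the mitochondrial genome took an uneven part of the fragments: 8.25%, 16.4% and 7.70% in shZMAT2-1 replicates 1, 2 and 3, 27.0%, 14.5% and 16.6% in shZMAT2-2, and 7.86%, 43.2% and 8.28% in control. A larger mitochondrial share lowers the FPKM of nuclear genes by construction, so levels are also given rescaled on nuclear genes, that is, relative to the fragments from nuclear genes only. ZMAT2 had 13.7 ± 1.30 FPKM in shZMAT2-1, 21.1 ± 0.922 FPKM in shZMAT2-2 and 36.5 ± 3.32 FPKM in control (SD, n = 3 each). Its 6 knockdown libraries were all below the 3 control libraries (two-sided exact permutation test, p = 0.0119, the smallest that 84 assignments allow). That test pools both arms, although every shZMAT2-2 library was above every shZMAT2-1 library in ZMAT2, so the 6 are not replicates of a single condition. The log2 fold change of ZMAT2 was -1.35 for shZMAT2-1 against control (limma, adjusted p = 0.0283) and -0.76 for shZMAT2-2 against control, which did not pass over all genes (adjusted p = 0.113). The shZMAT2-1 call was lost in 10 of 22 alternatives: with TPM (limma, adjusted p = 0.880), with only the groups compared (0.291) and on leaving out any single library other than control replicate 2 (0.0839 to 0.251). The 22 estimates ran from -1.56 to -1.17 on the log2 scale.

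The hepatocyte markers, all genes of plasma proteins, were abundant in every library, and the 8 factors were read against them. All 11 hepatocyte markers passed the filter, with a sum of 5009 to 7587 FPKM in shZMAT2-1, 4137 to 5628 FPKM in shZMAT2-2 and 3296 to 7315 FPKM in control. ALB, serum albumin, alone averaged 2383 ± 312 FPKM in shZMAT2-1, 1908 ± 153 FPKM in shZMAT2-2 and 2024 ± 599 FPKM in control (SD, n = 3 each). Other hepatocyte genes were low. TAT, PCK1, CPS1, G6PC1 and IGFBP1, from the list of FOXA and CEBPA targets, were at most 0.711 FPKM in any library and were not tested. Among the markers of other cells, PTPRC and CD3E (leukocytes), CDH5 and VWF (endothelium) and DCN (fibroblasts) were at most 0.0493 FPKM in any library, but others were higher. Of the markers in the table, 2 of 5 for leukocytes, 1 of 5 for endothelium and 2 of 8 for fibroblasts passed the filter, against 9 of 12 for cholangiocytes, which are described with their list. Over the 9 libraries LYZ, from the leukocyte list, reached 43.6 to 131 FPKM, and CD14, from the same list, 2.47 to 8.74 FPKM. PECAM1 (endothelium) ran from 0.662 to 1.70 FPKM. COL1A2 and PDGFRB (fibroblasts) ran from 0.558 to 2.31 and from 0.434 to 1.57 FPKM. In bulk RNA, fewer cells of a type and less RNA per cell cannot be told apart.

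CEBPA, a leucine zipper factor that activates liver metabolic genes and restrains proliferation, was the most abundant of the 8 genes by group mean in all 3 groups. Its gene (ENSG00000245848) has no intron and lies on the minus strand at chr19:33299934-33302534. CEBPA had 132, 77.5 and 126 FPKM in shZMAT2-1 replicates 1, 2 and 3, 49.1, 71.5 and 82.3 FPKM in shZMAT2-2, and 112, 39.1 and 110 FPKM in control. The 3 groups overlapped, and the lowest library of each group was the one of its highest mitochondrial share. The highest value was 3.39 times the lowest. These levels placed CEBPA at percentiles 96.5 to 97.7 of tested genes by group mean. They correspond to 2327 to 6681 fragments per library over the 2601 bases of the gene, so counting error was small beside the spread between libraries.

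**Figure D1:**
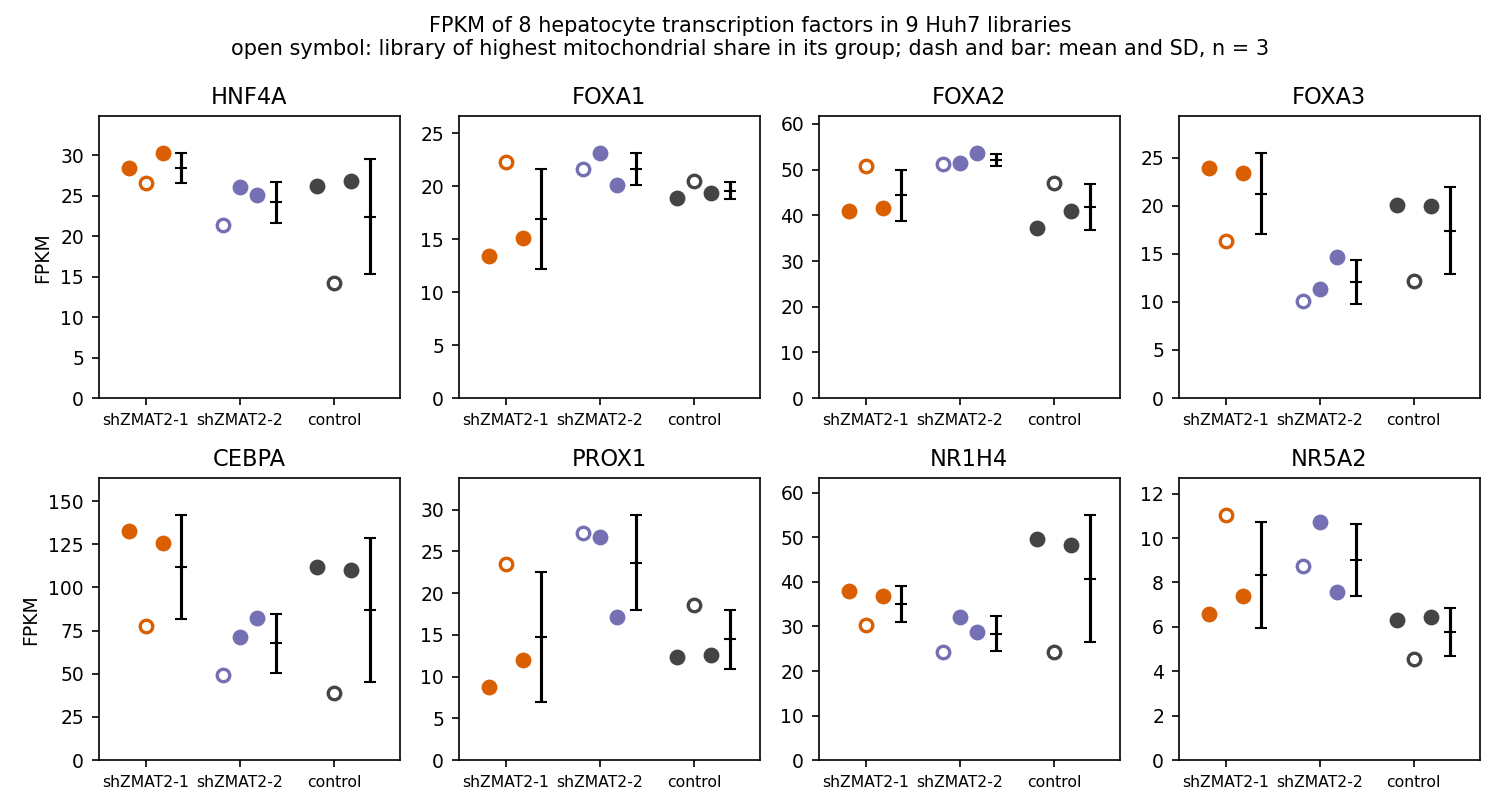
FPKM of the 8 transcription factors by library, with the group on the horizontal axis and a separate FPKM scale from 0 for each gene. Each point is 1 library, an open point is the library of highest mitochondrial share in its group, and the dash and bar give the mean and SD of 3 libraries. The open points of CEBPA, HNF4A, FOXA3 and NR1H4 are the lowest of each group, and those of PROX1 the highest.

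HNF4A is a nuclear receptor that binds DNA as a homodimer and is required for hepatocyte differentiation. HNF4A (ENSG00000101076, chr20:44355699-44432845, plus strand) had 28.4, 26.5 and 30.3 FPKM in shZMAT2-1, 21.3, 26.1 and 25.1 FPKM in shZMAT2-2, and 26.1, 14.2 and 26.9 FPKM in control. All 3 shZMAT2-2 libraries were below all 3 shZMAT2-1 libraries, while control replicate 2 was far below its own group. Rescaled on nuclear genes, HNF4A stood at 31.0, 31.7 and 32.8 in shZMAT2-1, 29.2, 30.5 and 30.2 in shZMAT2-2, and 28.4, 25.1 and 29.3 in control. On that scale it varied least, and shZMAT2-1 lay above both other groups without overlap, as 8.38% of tested genes did against control, while shZMAT2-2 lay below shZMAT2-1, as 7.24% did.

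NR1H4, the bile acid receptor FXR, binds DNA with RXR and shuts down bile acid synthesis. NR1H4 (ENSG00000012504, chr12:100473708-100564414, plus strand) had 38.03, 30.4 and 36.9 FPKM in shZMAT2-1, 24.3, 32.1 and 28.8 FPKM in shZMAT2-2, and 49.6, 24.2 and 48.3 FPKM in control. Control replicates 1 and 3 held the 2 highest values and control replicate 2 the lowest, so both arms overlapped with the control. Rescaled on nuclear genes, NR1H4 was 41.4, 36.4 and 39.9 in shZMAT2-1, 33.3, 37.5 and 34.5 in shZMAT2-2, and 53.8, 42.7 and 52.7 in control. On that scale all 6 knockdown libraries were below all 3 control libraries. It was the only one of the 8 genes to separate both arms from control on that scale, and 2.47% of tested genes did so in that direction. For each arm alone, 6.1% of tested genes in shZMAT2-1 and 5.42% in shZMAT2-2 were below the control in this way, and none of the 8 genes was above it in both arms, where 5.03% were.

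NR5A2 (LRH-1) is a nuclear receptor of bile acid and cholesterol genes and was the least abundant of the 8 genes by group mean in every group. NR5A2 (ENSG00000116833, chr1:200027614-200177420, plus strand) had 6.57, 11.03 and 7.38 FPKM in shZMAT2-1, 8.75, 10.7 and 7.55 FPKM in shZMAT2-2, and 6.33, 4.53 and 6.46 FPKM in control. It was the one gene of the 8 for which all 6 knockdown libraries lay above all 3 control libraries in FPKM, by a margin of 6.57 to 6.46 FPKM at the nearest pair. Of all tested genes, 4.69% separated in this way. Rescaled on nuclear genes, control replicate 2 reached 7.99 and shZMAT2-1 replicate 1 stood at 7.16, so that the shZMAT2-1 arm overlapped with the control. The shZMAT2-2 arm stayed above it, at 12.0, 12.5 and 9.06 against 6.87, 7.99 and 7.04 in control, and 11.4% of tested genes did likewise.

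**Figure D2:**
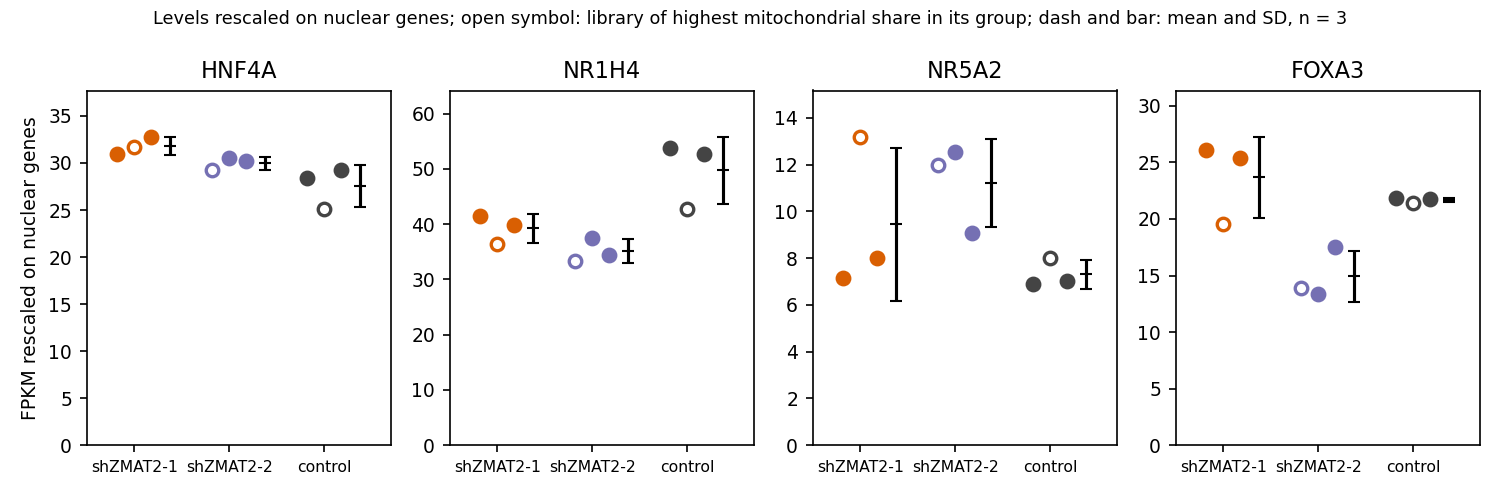
FPKM rescaled on nuclear genes for HNF4A, NR1H4, NR5A2 and FOXA3, by library and group, each on its own scale from 0, with means and SD of 3 libraries. Every knockdown library of NR1H4 is below the lowest control value of 42.7, and the 3 control values of FOXA3 lie between 21.5 and 21.8.

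FOXA2 was the most abundant of the FOXA factors, the forkhead proteins that open liver enhancers during development. FOXA2 (ENSG00000125798, chr20:22580998-22585455, minus strand) had 40.9, 50.9 and 41.5 FPKM in shZMAT2-1, 51.3, 51.5 and 53.6 FPKM in shZMAT2-2, and 37.2, 47.1 and 41.0 FPKM in control. It varied least of the 8 genes in FPKM, with a highest value of 1.44 times the lowest. The shZMAT2-2 libraries lay above all 6 others in FPKM, but control replicate 2 was the highest of all, at 83.0, after rescaling on nuclear genes.

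FOXA1 acts with FOXA2 at the same liver enhancers. FOXA1 (ENSG00000129514, chr14:37589552-37596059, minus strand) had 13.4, 22.3 and 15.1 FPKM in shZMAT2-1, 21.6, 23.1 and 20.1 FPKM in shZMAT2-2, and 18.9, 20.5 and 19.3 FPKM in control. The shZMAT2-1 replicates 1 and 3 were below every other library, while its replicate 2 was exceeded only by shZMAT2-2 replicate 2, so the arm overlapped with both other groups.

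FOXA3 is the FOXA factor that becomes prominent later in liver development. FOXA3 (ENSG00000170608, chr19:45863989-45873797, plus strand) had 23.9, 16.4 and 23.4 FPKM in shZMAT2-1, 10.1, 11.4 and 14.6 FPKM in shZMAT2-2, and 20.1, 12.2 and 19.95 FPKM in control. The shZMAT2-2 libraries were below all shZMAT2-1 libraries, and control replicate 2 fell among them. Rescaled on nuclear genes, FOXA3 was 26.1, 19.6 and 25.4 in shZMAT2-1, 13.9, 13.3 and 17.5 in shZMAT2-2, and 21.8, 21.5 and 21.8 in control. On that scale the 3 control libraries nearly coincided and the shZMAT2-2 arm was below both other groups. Of tested genes, 5.42% lay below the control in this way and 7.24% below shZMAT2-1.

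The makeup of the FOXA family was set out as shares of the summed level of its 3 genes. The sum was 82.6 ± 6.05 FPKM in shZMAT2-1, 85.8 ± 2.68 FPKM in shZMAT2-2 and 78.8 ± 2.23 FPKM in control (SD, n = 3 each). FOXA3 made up 26.1% ± 6.76 of that sum in shZMAT2-1, 14.0% ± 2.26 in shZMAT2-2 and 22.2% ± 6.03 in control. FOXA2 made up 53.7% ± 2.76, 60.8% ± 0.967 and 53.0% ± 5.37 in the same groups, and FOXA1 20.3% ± 4.07, 25.2% ± 2.14 and 24.8% ± 0.808. Shares do not depend on a factor common to a library. The FOXA3 share was still lowest in the library of highest mitochondrial share of each group. It was 18.3% in shZMAT2-1 replicate 2, 12.2% in shZMAT2-2 replicate 1 and 15.3% in control replicate 2. The other shZMAT2-2 libraries did not follow that order, with 13.2% in replicate 2 and 16.5% in replicate 3, at mitochondrial shares of 14.5% and 16.6%. The ratio of FOXA3 to FOXA1 was 1.36 ± 0.552 in shZMAT2-1, 0.563 ± 0.142 in shZMAT2-2 and 0.897 ± 0.263 in control. The shZMAT2-2 ratios of 0.470, 0.493 and 0.726 lay below the lowest shZMAT2-1 ratio of 0.735, but overlapped with the control through the 0.594 of control replicate 2.

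**Figure D3:**
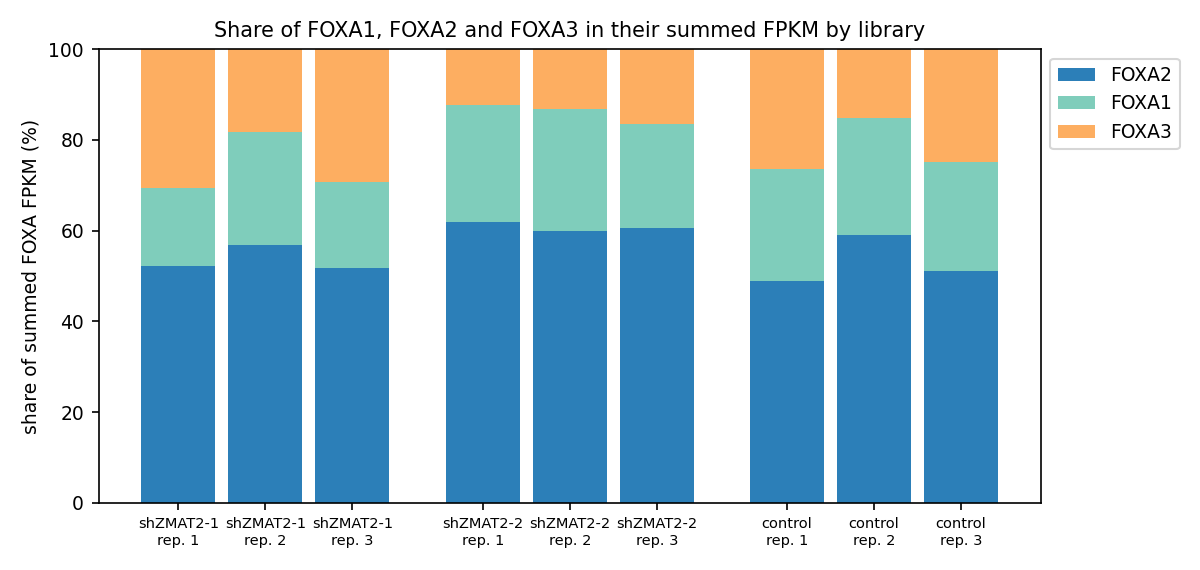
Share of FOXA2, FOXA1 and FOXA3 in their summed FPKM, in percent, with 1 stacked bar per library, grouped as shZMAT2-1, shZMAT2-2 and control. FOXA3 takes 12.2% to 16.5% in the shZMAT2-2 bars and 15.3% to 30.6% in the others.

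PROX1 is a homeobox factor needed for hepatoblast migration out of the liver bud. PROX1 (ENSG00000117707, chr1:213983181-214041510, plus strand) had 8.76, 23.5 and 12.0 FPKM in shZMAT2-1, 27.2, 26.7 and 17.1 FPKM in shZMAT2-2, and 12.3, 18.6 and 12.6 FPKM in control. The highest value in each group was again the library of highest mitochondrial share, the reverse of CEBPA. The ratio of the highest to the lowest library was 3.10, and all 3 groups overlapped.

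The order of the genes by group mean began with CEBPA, FOXA2, NR1H4 and HNF4A in each group. In shZMAT2-1 these 4 genes had values that did not overlap with those of the next gene in the order. In control none of these neighbours was separate, and NR1H4 overlapped with both FOXA2 and HNF4A. In shZMAT2-2 only FOXA2 and NR1H4 were separate among the first 4. Library by library, NR1H4 was above HNF4A in all 3 control and all 3 shZMAT2-2 libraries. CEBPA was above FOXA2 in 2 of 3 libraries in each of these groups, and FOXA2 above NR1H4 in 1 of 3 control libraries. FOXA3 had rank 5 in shZMAT2-1, 7 in shZMAT2-2 and 6 in control, at percentiles 82.6, 73.2 and 81.3 of tested genes. PROX1 had rank 7 in shZMAT2-1, 5 in shZMAT2-2 and 7 in control, at percentiles 74.9, 86.7 and 77.5.

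None of the 8 genes passed the test in any comparison (limma on log2(FPKM + 1), Benjamini-Hochberg adjusted p under 0.05). Over all tested genes, 0.08% were called in shZMAT2-1 against control, 0.587% in shZMAT2-2 against control, 0.542% in the mean of both arms against control and 0% in shZMAT2-2 against shZMAT2-1. The number of tested genes at an unadjusted p under 0.05 was 648, 787, 779 and 465 in these comparisons. Among the 8 it was 0, 1, 1 and 1. The median log2 fold change of the 8 was 0.19 in shZMAT2-1 and 0.14 in shZMAT2-2, beside 0.16 and 0.05 over all tested genes. Both arms share the same 3 control libraries.

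In shZMAT2-1 against control the largest estimate was that of CEBPA, a log2 fold change of 0.47 (SE 0.42), followed by 0.44 (SE 0.23) for NR5A2 and 0.38 (SE 0.25) for HNF4A. FOXA3 had 0.29, FOXA2 0.09, PROX1 -0.06, NR1H4 -0.15 and FOXA1 -0.23. The adjusted p of limma ranged from 0.805 to 0.949 over the 8. The 95% interval of CEBPA ran from -0.46 to 1.39, so both a fall and a more than doubled level are inside it.

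In shZMAT2-2 against control the estimates were 0.67 (SE 0.34) for PROX1, 0.56 (SE 0.23) for NR5A2, 0.32 (SE 0.19) for FOXA2, -0.48 (SE 0.25) for FOXA3 and -0.45 (SE 0.28) for NR1H4. The remaining values were 0.15 for HNF4A, 0.14 for FOXA1 and -0.25 for CEBPA. NR5A2 was the one gene of the 8 at an unadjusted p under 0.05 (limma, adjusted p = 0.631). NR5A2 and FOXA2 lay above the control without overlap, as did 11.9% of tested genes, and NR5A2 was the one gene of the 8 that did so in shZMAT2-1, as did 9.1%. None of the 8 lay below the control without overlap, in shZMAT2-1 (1.83% of tested genes), in shZMAT2-2 (1.52%) or over all 6 knockdown libraries (0.685%). In the mean of both arms NR5A2 had a log2 fold change of 0.50 (SE 0.20, 95% interval 0.07 to 0.94, limma, adjusted p = 0.575).

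Between the arms, FOXA3 had the largest difference, a log2 fold change of -0.77 (SE 0.25, 95% interval -1.33 to -0.20) in shZMAT2-2 against shZMAT2-1. It was again the one gene of the 8 at an unadjusted p under 0.05 (limma, adjusted p = 0.657). PROX1 followed with 0.73 (SE 0.34), CEBPA with -0.71 (SE 0.42) and FOXA1 with 0.36 (SE 0.21). FOXA2 lay above shZMAT2-1 without overlap, as did 5.59% of tested genes, and HNF4A and FOXA3 lay below it, as did 9.28%. The mitochondrial share of 14.5% to 27.0% in shZMAT2-2 overlapped with that of shZMAT2-1 only through shZMAT2-1 replicate 2, at 16.4%. Replicates 1 and 3 of shZMAT2-1 were at 8.25% and 7.70%, so the part of the share in these differences was not separated from the arm.

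**Figure D4:**
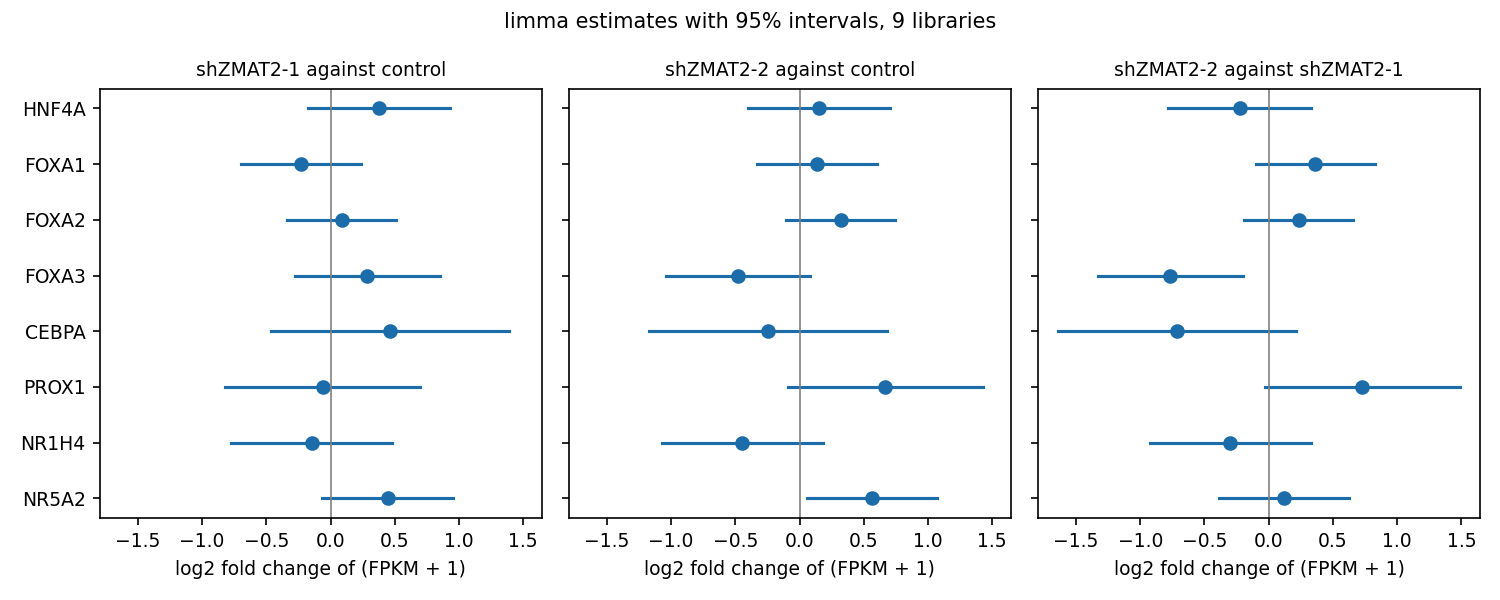
limma log2 fold changes of FPKM + 1 for the 8 genes in 3 comparisons, as points with 95% intervals over 9 libraries. All intervals cross 0 except those of NR5A2 in shZMAT2-2 against control and FOXA3 in shZMAT2-2 against shZMAT2-1.

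The library of highest mitochondrial share in each group was shZMAT2-1 replicate 2, shZMAT2-2 replicate 1 and control replicate 2. HNF4A, FOXA3, CEBPA and NR1H4 were lowest in that library in all 3 groups, as were 45.2% of 11232 tested nuclear genes. PROX1 was highest in it in all 3 groups, as were 5.59%. CEBPA there had 0.600, 0.638 and 0.352 times the mean of the other 2 libraries of shZMAT2-1, shZMAT2-2 and control, and PROX1 2.27, 1.24 and 1.49 times. Rescaled on nuclear genes, CEBPA still had 0.661, 0.737 and 0.571 times that mean, and PROX1 2.50, 1.44 and 2.42 times. On that scale CEBPA and NR1H4 were lowest in all 3 groups, as were 28.7%, and FOXA1, FOXA2 and PROX1 highest, as were 22%. The part of transcript properties in this was not tested. In GENCODE release 29 the longest coding transcript of PROX1 is 8498 bases with 40.7% G and C, and that of CEBPA 2631 bases with 65.9%.

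**Figure D5:**
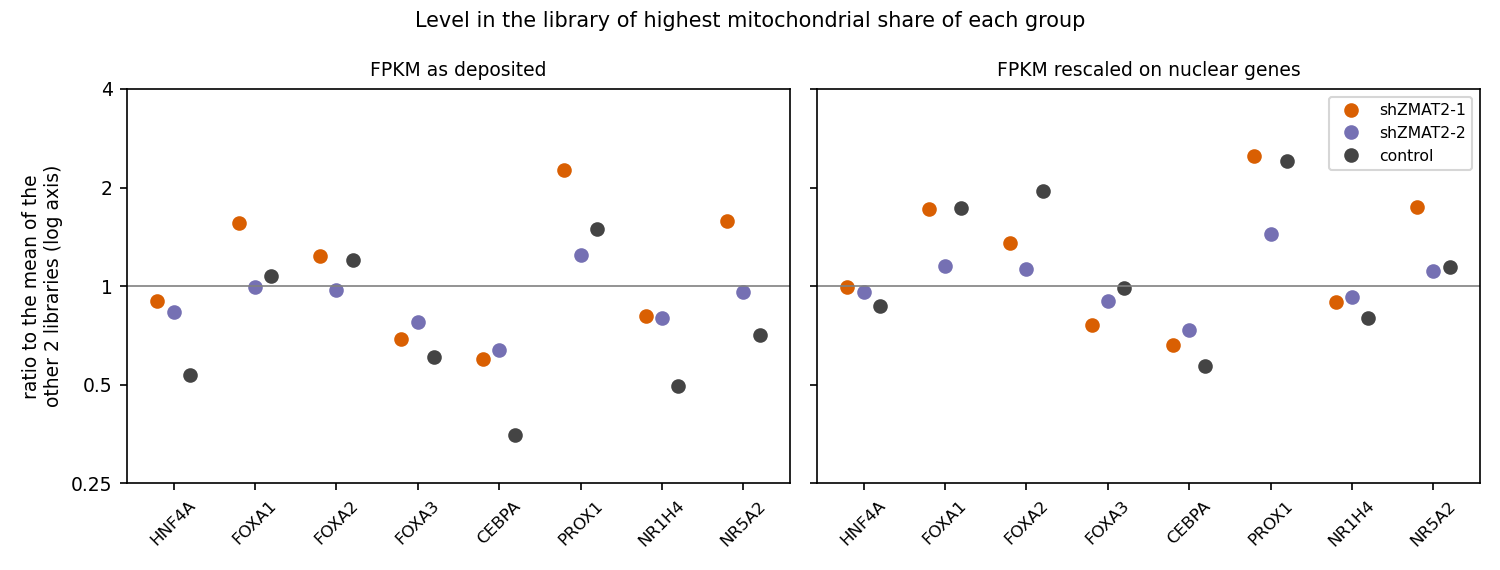
Level of each of the 8 genes in the library of highest mitochondrial share of a group, divided by the mean of the other 2 libraries of that group, on a log axis, with 1 point per group. The left panel uses FPKM as deposited and the right panel FPKM rescaled on nuclear genes, where CEBPA stays at 0.571 to 0.737 and PROX1 at 1.44 to 2.50.

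Among libraries of near-equal mitochondrial share, shZMAT2-1 replicates 1 and 3 could be set against control replicates 1 and 3, at 7.70% to 8.28%. NR1H4 had 0.765 times, FOXA1 0.746 times and PROX1 0.834 times the control mean there, with both knockdown libraries below both control libraries. FOXA3 had 1.18 times, CEBPA 1.16 times, HNF4A 1.11 times and NR5A2 1.09 times, with both above. With 2 libraries a group, 37.5% of tested genes were below and 35.3% above in this way. A fit without control replicate 2 and shZMAT2-1 replicate 2 gave FOXA1 a log2 fold change of -0.40 (limma, adjusted p = 0.163) and NR1H4 -0.38 (adjusted p = 0.215) in shZMAT2-1 against control. None of the 8 genes was called there, where 1.24% of all tested genes were.

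For shZMAT2-2 the calls turned on the same libraries or on the mitochondrial covariate. Without control replicate 2 alone, NR1H4 fell by 0.77 on the log2 scale in shZMAT2-2 against control (limma, adjusted p = 0.0478, 2.4% of tested genes called), and none of the 8 was called in the mean of both arms, where 1.33% were. That fit sets shZMAT2-2 libraries with mitochondrial shares of 14.5% to 27.0% against control libraries of 7.86% and 8.28%. The shZMAT2-2 arm and the share cannot be told apart in it. With the log2 of the summed mitochondrial FPKM as a covariate, NR1H4 was again the one gene of the 8 called in that arm, at -0.31 (limma, adjusted p = 0.0499, 9.84% called) and in the mean of both arms at -0.32 (adjusted p = 0.0231, 9.75% called). Its shZMAT2-1 estimate with the covariate was -0.33 (limma, adjusted p = 0.0689, 3.73% called). With scaling on nuclear genes NR1H4 had log2 fold changes of -0.33 for shZMAT2-1 (limma, adjusted p = 0.420) and -0.49 for shZMAT2-2 (adjusted p = 0.126), and FOXA3 -0.52 in shZMAT2-2 (adjusted p = 0.161). None of the 8 was called with that scaling, where 0.631% of tested genes were called in shZMAT2-1, 1.75% in shZMAT2-2 and 1.76% in the mean of both arms.

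Without both control replicate 2 and shZMAT2-1 replicate 2, 6 of the 8 genes were called in shZMAT2-2 against control, beside 30.2% of all tested genes. PROX1 (0.85), NR5A2 (0.42) and FOXA2 (0.41) rose on the log2 scale in that fit, and NR1H4 (-0.77), CEBPA (-0.74) and FOXA3 (-0.70) fell. In the mean of both arms NR1H4 alone was called, at -0.58 (limma, adjusted p = 0.0335), beside 4.1% of all tested genes. In the same fit PROX1 (1.10), FOXA1 (0.57) and FOXA2 (0.33) were higher and CEBPA (-0.95), FOXA3 (-0.93) and NR1H4 (-0.40) lower in shZMAT2-2 against shZMAT2-1, with 42.3% of all tested genes called. That fit sets shZMAT2-2 libraries with mitochondrial shares of 14.5% to 27.0% against libraries of 7.70% to 8.28%, so the arm and the share cannot be told apart in it.

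Genes that these factors are known to regulate were set out by list. Of 15 FOXA and CEBPA targets 10 were tested, of 17 FXR targets 12 and of 12 LRH-1 targets 6, and limma called none in any comparison. Over these lists, at most 3 tested members were at an unadjusted p under 0.05 in a comparison, 3 of the 12 FXR targets in shZMAT2-1 and in the mean of both arms. The median log2 fold change of the FOXA and CEBPA list was 0.06 in shZMAT2-1 and -0.06 in shZMAT2-2, and that of the FXR list 0.10 and -0.20, with 8 and 3 of its 12 tested members above 0. For the LRH-1 list it was 0.37 in shZMAT2-1 and 0.03 in shZMAT2-2, beside 0.16 and 0.05 over all tested genes. CYP7A1, the rate-limiting enzyme of bile acid synthesis and a target of NR5A2, was at most 0.0152 FPKM in any library.

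NR0B2 (SHP), a receptor without a DNA-binding domain that is induced by NR1H4 and represses NR5A2, belongs to 2 of these lists. NR0B2 had 12.99, 9.63 and 13.03 FPKM in shZMAT2-1, 7.90, 9.04 and 10.4 FPKM in shZMAT2-2, and 7.53, 4.20 and 6.83 FPKM in control. All 6 knockdown libraries were above the 3 control libraries, as for 4.69% of tested genes, and its log2 fold change against control reached 0.86 for shZMAT2-1 (SE 0.23, limma, adjusted p = 0.341) and 0.52 for shZMAT2-2 (SE 0.23, adjusted p = 0.708). SLCO1B3, a hepatic uptake transporter and FXR target, had 1.09, 0.974 and 0.982 FPKM in shZMAT2-1, 0.863, 0.809 and 0.808 FPKM in shZMAT2-2, and 1.29, 1.99 and 1.67 FPKM in control. All 6 knockdown values were below the control, as for 0.685% of tested genes. SLCO1B3 reached 1 FPKM in the 3 control libraries and in 1 of the 6 knockdown libraries, so it passed the filter through the control group. Its order is therefore partly set by the filter, and its values are a description. It is 1 of the 3 FXR targets counted at an unadjusted p under 0.05.

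Of 37 other liver transcription factors 33 were tested and none was called by limma in any comparison, with 2 at an unadjusted p under 0.05 in the mean of both arms. Those 2 were NR0B2 and KLF15, a Krüppel-like factor of fasting metabolism. KLF15 averaged 4.47 ± 0.700 FPKM in shZMAT2-1, 3.19 ± 0.679 FPKM in shZMAT2-2 and 7.69 ± 2.85 FPKM in control (SD, n = 3 each), with a log2 fold change of -0.81 (SE 0.23, limma, adjusted p = 0.262). Control replicate 2, at 4.40 FPKM, overlapped with the knockdown values of 2.45 to 4.89 FPKM.

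Among markers of the cholangiocyte, the other epithelial fate of the hepatoblast, 9 of 12 were tested and SPP1 alone was called. SPP1, osteopontin, had 1.66, 2.20 and 1.69 FPKM in shZMAT2-1, 3.99, 4.47 and 3.78 FPKM in shZMAT2-2, and 1.78, 1.69 and 1.70 FPKM in control. It rose in shZMAT2-2 by a log2 fold change of 0.90 (SE 0.14, limma, adjusted p = 0.0229), in a comparison that called 0.587% of tested genes, while its value in shZMAT2-1 was 0.06 (SE 0.14, adjusted p = 0.879). The shZMAT2-2 call was lost in 10 of 21 alternatives: with TPM (limma, adjusted p = 1.00), the replicate block (0.0550), only the groups compared (0.123) and on leaving out any single library other than control replicate 2 or shZMAT2-1 replicate 2 (0.0595 to 0.155). The 21 estimates ran from 0.84 to 1.19 on the log2 scale. PROM1 and KRT19 were above the control in all 6 knockdown libraries, as were 4.69% of tested genes, without passing the test. PROM1 averaged 13.3 ± 0.474 FPKM in shZMAT2-1, 14.6 ± 2.29 FPKM in shZMAT2-2 and 8.02 ± 2.58 FPKM in control, with a log2 fold change of 0.77 in the mean of both arms (SE 0.20, limma, adjusted p = 0.210). KRT19 averaged 18.4 ± 2.46, 15.8 ± 2.75 and 11.2 ± 3.25 FPKM in the same groups (SD, n = 3 each). The most abundant members were SOX9, a factor of the bile duct lineage, at 31.2 to 73.3 FPKM over the 9 libraries, SLC4A2 at 17.0 to 52.7 FPKM and SOX4 at 23.6 to 50.1 FPKM. EPCAM, an epithelial adhesion protein, ran from 6.32 to 11.5 FPKM, whereas KRT7, a keratin of the mature duct, was at most 0.0136 FPKM. The summed level of the list was 186 to 195 FPKM in shZMAT2-1, 183 to 204 FPKM in shZMAT2-2 and 157 to 199 FPKM in control.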

How the data were processed

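Poly(A) RNA of 9 Huh7 samples, 3 per group, was sequenced as strand-specific libraries, per the labels' protocols. The authors deposited 1 table of FPKM per gene, used here unchanged. The tools named, with no version, were HISAT, featureCounts and DESeq2, per the submitters' processing notes, and DESeq2 was not run here. The genome build and whether counting used strand are not given in the sources used here. Gene coordinates are those of the table, and 25058 of the 25089 gene IDs shared with GENCODE release 29 overlap its position. Upstream windows come from RefSeq in GRCh38.p14, in which 6 of the 8 genes had a window. HNF4A and CEBPA start at the same base there and in the table.

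Depth was recovered from 731 to 848 FPKM values of single-exon genes per library, which gave whole fragments within 0.1 for 100% of values. The filter kept genes that reached 1 FPKM in 3 or more libraries. They were tested with limma 3.58.1 in R 4.3.3, with a trend, on log2(FPKM + 1) over all 9 libraries with the group as the only term. That scale understates changes at low FPKM. The threshold for a call was an adjusted p of 0.05 by Benjamini-Hochberg over all tested genes, two-sided. The fit was tested on simulated data. Alternatives were another pseudocount (0.1), no filter and a filter of 5 FPKM, TPM, median-of-ratios, quantile and nuclear scaling, a mitochondrial covariate, a replicate block, left-out libraries, no trend, only the groups compared and protein-coding genes only.

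The 8 genes, the gene lists and the tests were chosen with earlier results of these data known. Of each list, the text draws on members called and otherwise on up to 4 tested members with the smallest p in the mean of both arms. Some items are not reported here. Genes named for being near 0 were chosen after their values were seen. The remaining steps used Python 3.11.15, matplotlib 3.10.9, pandas 2.3.3, scipy 1.17.1 and numpy 2.4.6.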

Additional observations from a re-analysis of the deposited data

How the results depend on the processing

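The 8 genes gave no call in any comparison on the deposited scale, and this held in all alternatives for shZMAT2-1 against control. In shZMAT2-2 against control 1 gene was called with the mitochondrial covariate, 0 to 1 over left-out libraries (NR1H4, without control replicate 2) and 6 without control replicate 2 and shZMAT2-1 replicate 2. In the mean of both arms 1 was called with the covariate and 1 without those 2 libraries. In shZMAT2-2 against shZMAT2-1 the count was 6 without those 2 libraries. Of 696 refits of a single gene, 648 kept direction and side of the threshold, 16 passed it and 32 changed sign. Calls over all tested genes ranged from 0 to 419 in shZMAT2-1, 0 to 3396 in shZMAT2-2, 1 to 1096 in the mean and 0 to 4761 between the arms. TPM moved the median of all tested genes in shZMAT2-1 to 0.37.

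Signs changed as follows on the log2 scale, and the cause was not tested. In shZMAT2-1 against control, FOXA2 became -0.080 with median-of-ratios, -0.17 with quantile and -0.10 with nuclear scaling, PROX1 0.15 with TPM and 0.10 with the covariate, and NR1H4 0.072 with TPM. In shZMAT2-2 against control HNF4A became -0.13 without the 2 libraries. In the mean of both arms FOXA1 became 0.057 and FOXA3 0.0039 with TPM, and CEBPA -0.0060, -0.037 and -2.2e-05 with median-of-ratios, quantile and nuclear scaling and -0.26 without the 2 libraries. Between the arms HNF4A became 0.041 and NR1H4 0.026 with the covariate, and NR5A2 -0.090 with TPM.

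Over left-out single libraries, the sign changed within these ranges. In shZMAT2-1 against control they were -0.013 to 0.17 for FOXA2, -0.028 to 0.72 for CEBPA, -0.44 to 0.23 for PROX1 and -0.47 to 0.026 for NR1H4. In shZMAT2-2 against control they were -0.13 to 0.30 for HNF4A and -0.74 to 0.0081 for CEBPA. In the mean of both arms they were -0.019 to 0.42 for HNF4A, -0.15 to 0.025 for FOXA1, -0.32 to 0.020 for FOXA3 and -0.38 to 0.36 for CEBPA. Between the arms it was -0.016 to 0.32 for NR5A2. Control replicate 2 gave the lowest value in each range against control, except for FOXA2, PROX1 and FOXA1, where shZMAT2-1 replicate 2 did.

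Whether replicate numbers pair the samples was not settled. Deviations of same-numbered libraries correlated at -0.76 to 0.78 and those of different-numbered libraries at -0.77 to 0.81, so the check cannot decide it. With the replicate block none of the 8 genes was called, and the calls over all tested genes were 13, 52, 58 and 0 in the 4 comparisons, beside 9, 66, 61 and 0 without it. The fit on only the groups compared could not be made for the mean of both arms, which needs all 3 groups. These comparisons rest on 3 libraries a group, with a mitochondrial share between 7.70% and 43.2%. Fragments were worked out for CEBPA alone, and the part of depth in the spread of the other genes was not tested.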

Other observations

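Noncoding genes beside the 8 factors were measured in the same table. LINC00261, a long noncoding RNA beside FOXA2, had 40.2, 49.7 and 44.1 FPKM in shZMAT2-1, 38.4, 51.3 and 39.9 FPKM in shZMAT2-2, and 40.5, 20.05 and 40.3 FPKM in control. Control replicate 2 stood below all other libraries, whereas its FOXA2 value was the highest of the control group. These are FPKM as deposited, which the mitochondrial share of 43.2% in control replicate 2 lowers for nuclear genes. LINC00261 is not given rescaled on nuclear genes. CEBPA-DT, the divergent transcript of CEBPA, averaged 4.58 ± 1.40 FPKM in shZMAT2-1, 3.60 ± 0.350 FPKM in shZMAT2-2 and 4.77 ± 2.39 FPKM in control (SD, n = 3 each). HNF4A-AS1 was between 0.161 and 1.84 FPKM over the 9 libraries. limma called none of the 3 in any comparison, with 0 at an unadjusted p under 0.05. Since the strand setting of the counting is not given, reads of HNF4A and HNF4A-AS1 cannot be told apart with certainty.

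Of 10 factors of other endoderm lineages, 4 had a row in the table used here and 2 were tested. SOX2 was at most 0.0975 FPKM and EOMES ran from 0.0890 to 0.299 FPKM over the 9 libraries. CDX2, a homeobox factor of the intestine, averaged 9.56 ± 1.21 FPKM in shZMAT2-1, 7.68 ± 0.872 FPKM in shZMAT2-2 and 10.8 ± 2.86 FPKM in control, and PDX1, a factor of the pancreas and duodenum, 2.74 ± 0.768, 4.12 ± 0.219 and 4.25 ± 2.28 FPKM in the same groups (SD, n = 3 each). Of 12 cofactors of liver receptors 10 were tested and limma called none. PPARGC1A and PPARGC1B were under 1 FPKM in all 9 libraries.

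Over the 9 libraries, which share the range in mitochondrial share, the gene most like each factor by Pearson r of log2(FPKM + 1) was CDCA8 for HNF4A (0.996), NCOA1 for FOXA1 (0.996), NCSTN for FOXA2 (0.981), COL26A1 for FOXA3 (0.987), SCPEP1 for CEBPA (0.999), TJP1 for PROX1 (0.991), MARCKS for NR1H4 (0.996) and CXADR for NR5A2 (0.988). After taking out the group means, NCOA1 and SPRED2 stayed among the 3 most like FOXA1, MARCKS among those of NR1H4 and NCSTN among those of FOXA2. These values are a description over 9 libraries and carry no test.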
